A study of Mus musculus with 16 samples.

Results

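The genes examined here encode the machinery of the chemical synapse. They comprise 43 mouse genes, of which 30 act in transmitter release at the presynaptic terminal and 13 encode postsynaptic scaffold or synaptic adhesion proteins, and they were picked by name out of the 55404 genes of the expression table. All 43 were found by symbol and had values high enough to be tested. Whole brain RNA was sequenced from 16 male mice at the age of 5 months, 1 library per mouse. The 8 Tecpr2 ki/ki mice were homozygous for the L1152fs knock-in, a frameshift that was introduced into the germ line of C57BL/6 J mice with CRISPR/Cas9 and is therefore present in every cell. The 8 wt/wt mice carried the unedited gene, and no mouse was treated. Tecpr2 encodes a protein of autophagy and the endolysosomal system. The study asked which transcripts differ in the ki/ki brain.

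At a presynaptic terminal, transmitter is loaded into vesicles by transporters, and the vesicles are tethered and primed at the active zone. A SNARE complex of vesicular synaptobrevin (Vamp), plasma membrane syntaxin (Stx) and Snap25 then drives fusion when synaptotagmin (Syt) binds calcium. The complex is taken apart by Nsf and SNAP proteins, and the vesicle membrane is retrieved by endocytosis. On the opposite side, scaffold proteins of the Dlg, Shank, Homer and Dlgap families hold receptors in the postsynaptic density, and neurexins and neuroligins bridge the cleft.

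The values are the linear normalised values that the authors deposited, rounded to whole numbers, and a log2 fold change is the ki/ki minus the wt/wt mean of log2(value + 1). The values of a mouse added up to between 11964284 and 12252324, and these totals do not carry the sequencing depth. Tecpr2 itself lay between 274 and 320 in ki/ki mice and between 928 and 1002 in wt/wt mice, so every library matched its label. In bulk tissue, fewer cells of a type and less RNA per cell cannot be told apart.

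None of the 43 synaptic genes passed the test between the genotypes. With limma and Benjamini-Hochberg adjustment over the 23244 genes tested, 0 of 43 passed an adjusted p of 0.1, where 0.133% of all genes did, and the smallest adjusted p of a member was 0.814. At an unadjusted p under 0.05 there was 1 member, Syt1, against 6.08% of all genes, and it was lower in ki/ki mice, as were 3.01% of all genes at this p. Leaving out 1 mouse at a time gave 0 to 4 such members. The mean of the caudal brainstem markers was also used as a covariate, built from the 6 of 17 markers high enough to be tested. With it, 17 of 43 had a p under 0.05, 15 of them lower, where 8.11% of all genes did and again 0 members passed. Of these 6 markers, 5 were themselves higher in ki/ki mice (median log2 fold change 0.19), none past the threshold. The covariate is therefore not separate from the genotype. In each of the 43 genes the ranges of ki/ki and wt/wt mice overlapped, while 0.086% of all genes had ranges without overlap. Among the 6896 genes with a mean value of at least 300, the range in which the synaptic genes lie, 0.247% passed the adjusted threshold, 7.58% had an unadjusted p under 0.05 (5.02% lower in ki/ki mice) and 0.189% had ranges without overlap. The fitted differences were small, from -0.10 (Homer1) to 0.069 (Syn3) on the log2 scale. A p that misses the threshold does not show equal levels, so the size of the differences that the data allow was read from their 95% intervals. These lay within 5% of the wt/wt level for 26 of the 43 genes, within 10% for 39 and within 20% for all 43. The bounds of 5%, 10% and 20% held for 18, 27 and 30 of the 30 presynaptic genes and for 8, 12 and 13 of the 13 postsynaptic genes. With the caudal brainstem covariate they held for 15, 38 and 42 of the 43 genes, and the log2 fold changes of Napb (-0.19 ± 0.077, SE), Sv2c (-0.12 ± 0.045), Snap25 (-0.096 ± 0.054) and Vamp1 (-0.091 ± 0.027) were then the lowest.

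**Figure D1:**
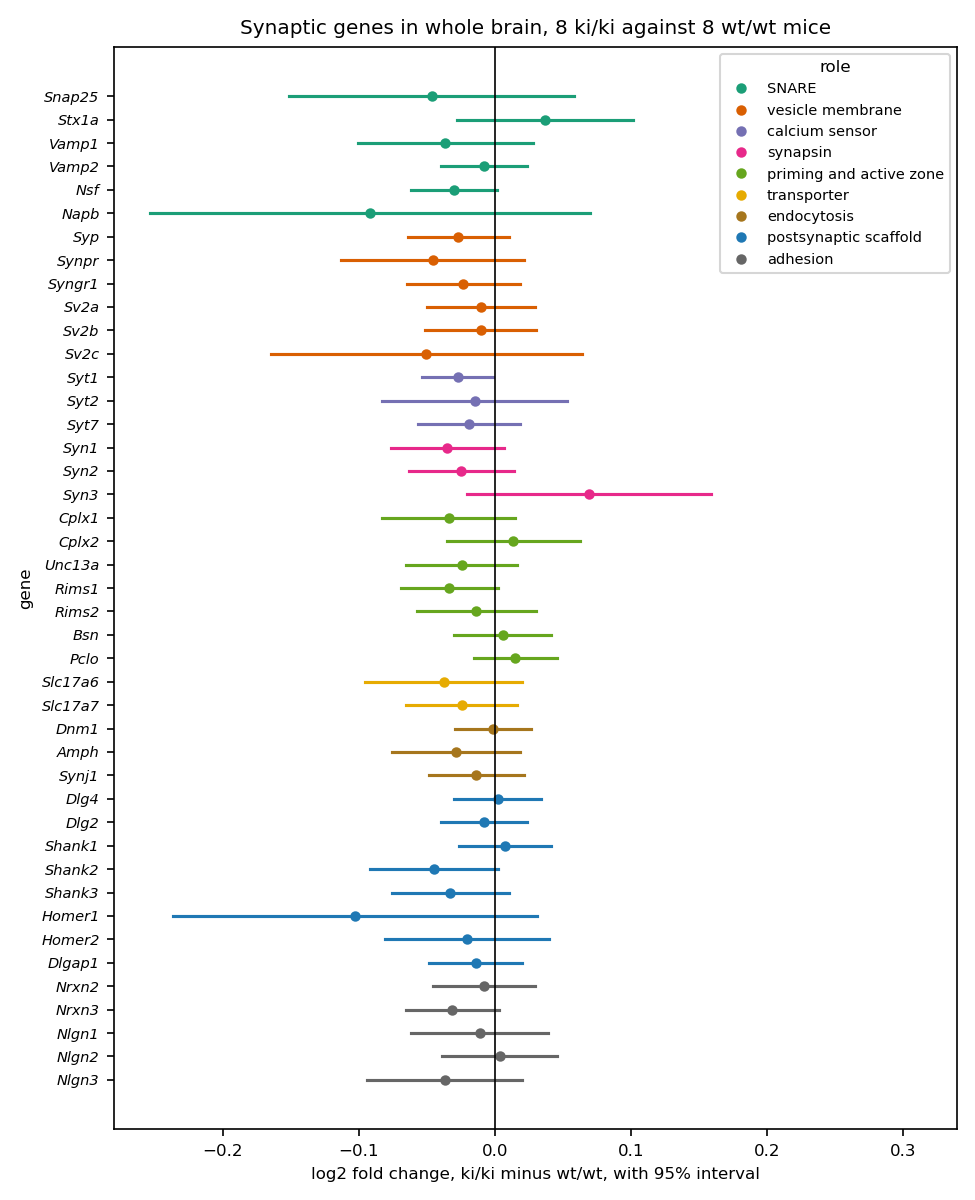
Each row is a gene, the point its log2 fold change (ki/ki minus wt/wt, 8 mice each) and the line its 95% interval from limma, coloured by role. The points lie between -0.10 and 0.069, and of the 43 intervals only that of Syt1 does not reach 0.

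Although no gene passed the test, 35 of the 43 fold changes were below 0, and their median was -0.023. Among all genes tested, 50.5% were below 0. Among the genes with a mean value of at least 300, 58.2% were. The share was 25 of 30 on the presynaptic side (median -0.024) and 10 of 13 on the postsynaptic side (median -0.014). Since these genes also vary together between mice, the count is a description and was given no test. Per mouse, the mean log2 value over the presynaptic genes minus that over the postsynaptic genes was 0.200 ± 0.0306 in ki/ki and 0.196 ± 0.0257 in wt/wt mice (SD, n = 8 each). The difference of 0.0038 was smaller than the SD within either genotype. The presynaptic mean by itself was 11.87 ± 0.0242 in ki/ki and 11.89 ± 0.0309 in wt/wt mice, a difference of -0.019, and the postsynaptic mean was 11.67 ± 0.0188 and 11.69 ± 0.0178, a difference of -0.023, which is larger than the SD within either genotype. The postsynaptic mean includes Homer1, which had the lowest fold change (-0.10), and the presynaptic neurexin genes Nrxn2 and Nrxn3. With these 2 neurexins moved to the presynaptic side, 27 of 32 presynaptic genes (median -0.024) and 8 of 11 postsynaptic genes (median -0.014) were below 0.

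Markers of cell types and regions were set beside this direction. Of 7 astrocyte markers 6 were higher in ki/ki mice, 2 of them at an adjusted p under 0.1 (limma, Benjamini-Hochberg), and their summed value was 13813 to 14471 in ki/ki and 12431 to 13547 in wt/wt mice. Of 8 microglia markers 7 were higher, 2 past the threshold, with sums of 2553 to 2720 and 2267 to 2528. All 8 striatal markers were lower, 1 past the threshold, with sums of 6330 to 6743 in ki/ki and 6708 to 7188 in wt/wt mice. All 11 cortical markers were lower with none past the threshold (sums 9883 to 10490 and 10198 to 10698), and of 9 pan-neuronal markers 6 were lower (sums 49986 to 51667 and 50808 to 52043). Of 5 choroid plexus markers 4 were lower with none past the threshold (sums 4197 to 4824 and 4692 to 5329). Of 6 thalamic markers 4 were lower with none past the threshold (sums 2233 to 2399 and 2318 to 2461). All 4 blood markers were higher with none past the threshold (sums 225 to 362 and 172 to 328). The sums overlapped widely for 8 cerebellar markers (9910 to 11705 in ki/ki and 9425 to 12220 in wt/wt mice), 9 oligodendrocyte markers (47419 to 53719 and 47754 to 53426) and 5 endothelial markers (2249 to 2376 and 2206 to 2415). No marker of these lists was at 0 in any mouse. Of 17 caudal brainstem markers 6 were high enough to be tested and 5 of these were above 0 with none past the threshold (sums 562 to 802 in ki/ki and 527 to 745 in wt/wt mice), and 10 of the 17 were at 0 in at least 1 mouse. With the caudal brainstem score as a covariate, 37 of the 43 synaptic genes were below 0, with a median of -0.036. The part of the other lists in the direction of the synaptic genes was not tested.

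The levels of the 43 genes differed widely. Divided by the length of their annotated exons, Cplx2 (2404 per kb) and Cplx1 (2355 per kb), whose proteins clamp and promote SNARE-driven fusion, stood highest. They were followed by Snap25 (2282 per kb), Vamp2 (2043 per kb), the endocytic GTPase gene Dnm1 (1805 per kb) and Syt1 (1574 per kb). The highest postsynaptic gene was Shank1 at 1074 per kb. Syn3, the synapsin of developing rather than mature neurons, was lowest at 26.9 per kb, below Synpr (74.4 per kb) and Homer2 (76.9 per kb). Within families, the level per kb of Vamp1 was 0.119 of that of Vamp2 in wt/wt mice, and that of Syt2 was 0.232 of that of Syt1. The vesicular glutamate transporter gene Slc17a6, used mainly by subcortical neurons, stood at 0.179 of Slc17a7, used mainly in cortex and cerebellum.

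**Figure D2:**
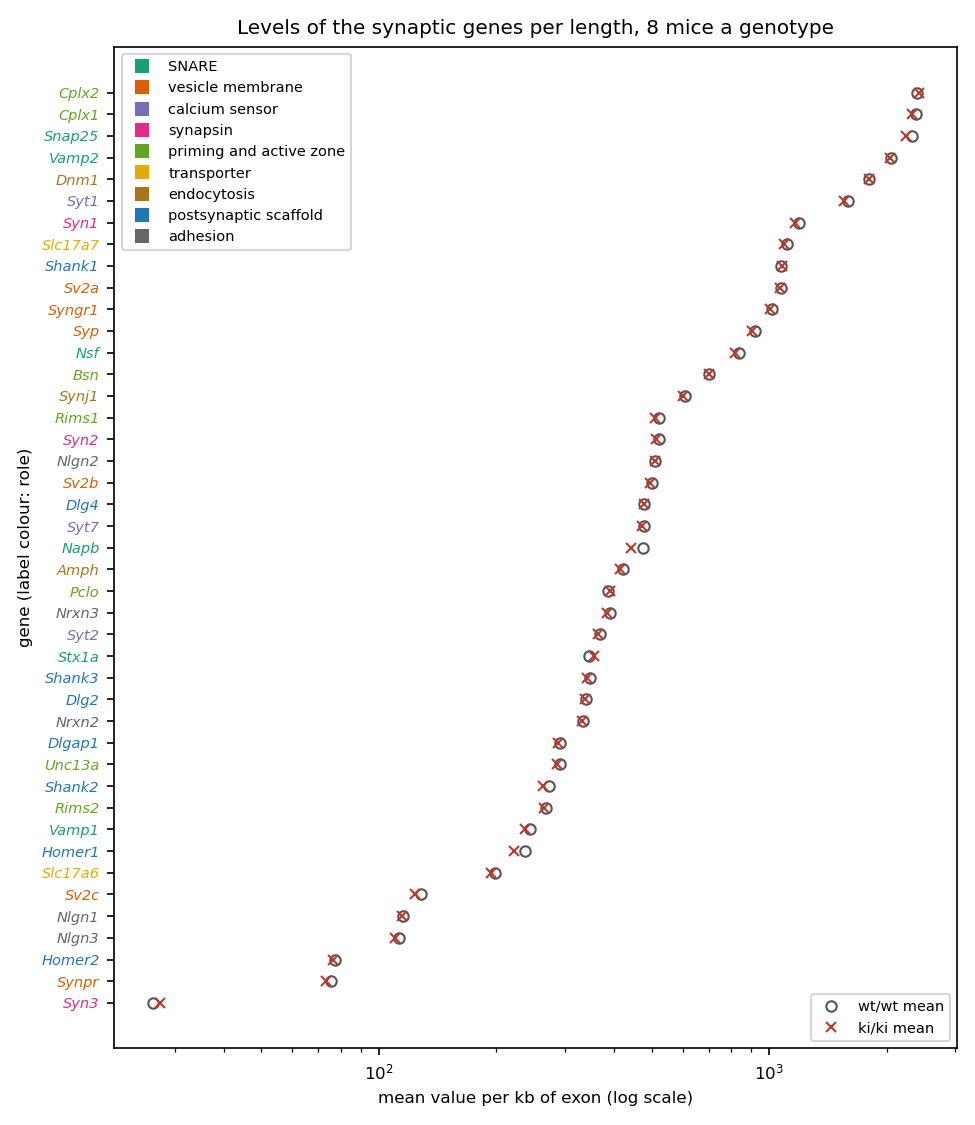
Mean value per kb of exon on a log scale for wt/wt (circles) and ki/ki mice (crosses), 8 each, with gene labels coloured by role. The levels run from 26.9 (Syn3) to 2404 (Cplx2), and circles and crosses nearly coincide.

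Among the SNARE genes and their recycling factors, 5 of 6 fold changes were below 0. Snap25 had the highest value of all 43 genes and was spread widely, from 13868 to 16701 (median 15244.5) in ki/ki and from 14095 to 16811 (median 15812.5) in wt/wt mice. Both genotypes thus covered nearly the same range, and the log2 fold change of -0.046 ± 0.049 (SE) was within it (limma with Benjamini-Hochberg, adjusted p = 0.934). Napb, which encodes beta-SNAP, ran from 2769 to 3502 (median 3202.5) in ki/ki and from 2716 to 3827 (median 3368.5) in wt/wt mice. It was the most variable gene of the 43 (SD of 0.15 within genotypes on the log2 scale), and its fold change was -0.092 ± 0.076 (limma, adjusted p = 0.915). Vamp1, the synaptobrevin of brainstem and motor circuits, lay between 2191 and 2591 in ki/ki and between 2274 and 2647 in wt/wt mice (medians 2387 and 2507). Its fold change of -0.036 ± 0.031 did not pass (limma, adjusted p = 0.917). Stx1a was the member of the complex with the opposite sign, at 880 to 1070 (median 921.5) in ki/ki and 884 to 976 (median 932) in wt/wt mice. Here 2 ki/ki mice lay above every wt/wt mouse and 1 below (0.037 ± 0.032, limma, adjusted p = 0.917). Nsf, the ATPase that separates spent SNARE complexes, was tighter, at 6644 to 7044 (median 6830.5) against 6642 to 7204 (median 7018.5). Its fold change was -0.030 ± 0.016 (limma, adjusted p = 0.850, exact two-sided permutation p = 0.0797). Vamp2, the main synaptobrevin of the forebrain, ran from 7352 to 8032 (median 7812.5) in ki/ki and from 7607 to 8018 (median 7759.5) in wt/wt mice. Its medians and means lay in opposite order, and the fold change was -0.0079 ± 0.016.

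All 6 genes of vesicle membrane proteins were below 0, from -0.050 for Sv2c to -0.010 for Sv2a, none past the threshold. Syp, which encodes synaptophysin, a protein that the study used as a stain for vesicles, had values of 4560 to 4965 (median 4701) in ki/ki and 4629 to 5000 (median 4773) in wt/wt mice. These ranges overlap over most of their length, and the fold change was -0.027 ± 0.019 (limma, adjusted p = 0.902). Synpr, a relative of synaptophysin, lay at 658 to 739 (median 696.5) and 680 to 762 (median 700.5), with a fold change of -0.046 ± 0.034 (limma, adjusted p = 0.902). Sv2c, the vesicle glycoprotein of basal ganglia and other subcortical neurons, ran from 1087 to 1297 (median 1195) in ki/ki and from 1094 to 1374 (median 1225.5) in wt/wt mice. The wt/wt mice alone covered almost all of this span, and its fold change of -0.050 ± 0.054 stayed within that spread (limma, adjusted p = 0.934). Its widely used paralogs Sv2a and Sv2b were at -0.010 ± 0.020 and -0.011 ± 0.020, and Syngr1, synaptogyrin, was at -0.023 ± 0.021.

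The calcium sensors were below 0 in 3 of 3 cases. Syt1, the fast sensor of forebrain synapses, was the gene with the smallest p. It lay between 12835 and 13304 (median 12971) in ki/ki and between 12726 and 13563 (median 13397) in wt/wt mice. All ki/ki mice lay below the wt/wt median, yet the lowest mouse of all was a wt/wt mouse. The fold change was -0.027 ± 0.013, for which limma gave p = 0.0398 before and 0.814 after Benjamini-Hochberg adjustment over all genes, and the exact two-sided permutation test gave p = 0.0657. Leaving out 1 mouse at a time kept the fold change of Syt1 between -0.036 and -0.022. Syt2, the fast sensor of brainstem and cerebellar synapses, ran from 2637 to 3001 (median 2732) in ki/ki and from 2519 to 2941 (median 2855) in wt/wt mice. Its fold change was -0.015 ± 0.033, with the lowest mouse again in the wt/wt and the highest in the ki/ki group. Syt7, the slow, high-affinity sensor, was at -0.019 ± 0.019.

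The synapsins tether vesicles to each other and to actin. Syn1 lay at 3685 to 4045 (median 3834.5) in ki/ki and 3658 to 4168 (median 3982) in wt/wt mice, a fold change of -0.035 ± 0.021 (limma, adjusted p = 0.877). Syn2 was at -0.025 ± 0.019. Syn3 had the highest fold change of the 43 genes, 0.069 ± 0.045, with values of 327 to 357 (median 336) in ki/ki and 298 to 349 (median 323) in wt/wt mice. The ki/ki mice were the tighter group, and 1 of them lay above and none below the wt/wt range, but the difference did not pass (limma, adjusted p = 0.893, exact permutation p = 0.0594). On the opposite strand, Timp3 covers 14.1% of the exon bases of Syn3. It had values of 870 to 972 in ki/ki and 808 to 920 in wt/wt mice, more than Syn3 itself and shifted in the same direction. Whether counting used the strand is not stated, so how reads in the shared bases were assigned is not known here. The part of the overlap in the value of Syn3 was not tested.

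**Figure D3:**
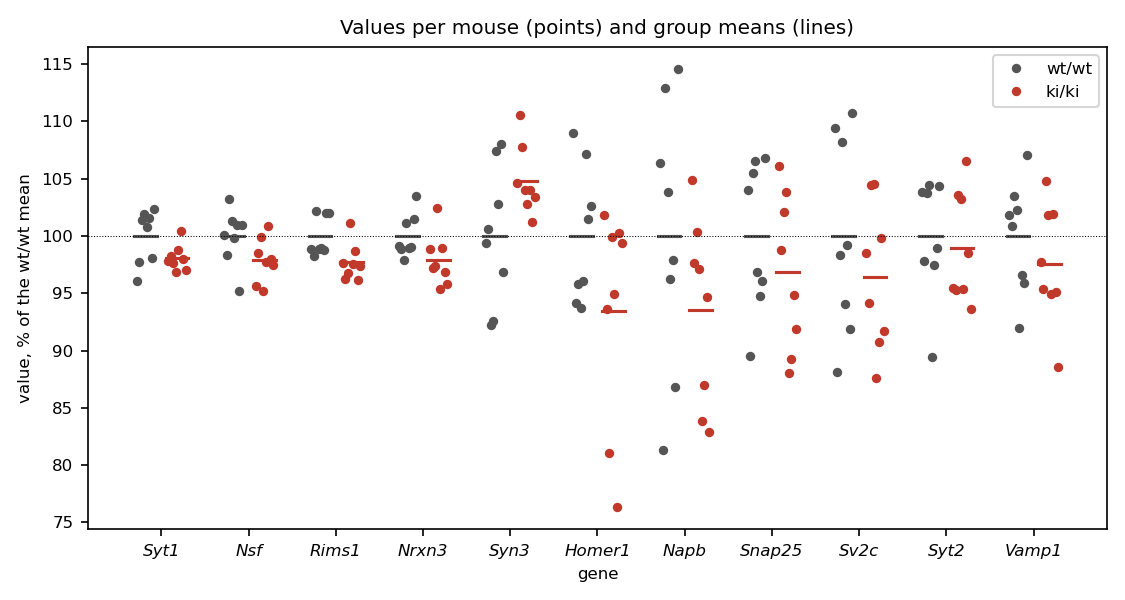
Values of 11 genes in each mouse as a percentage of the wt/wt mean (grey, wt/wt; red, ki/ki; 8 each), with lines for the group means. The groups overlap in every gene, and the spread is widest for Homer1 and Napb.

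Of the 7 genes of vesicle priming and the active zone, 4 were below and 3 above 0. Rims1, a scaffold that ties vesicles to calcium channels, lay at 3706 to 3895 (median 3756) in ki/ki and 3786 to 3937 (median 3811) in wt/wt mice. Of the ki/ki mice, 6 of 8 lay below every wt/wt mouse. Its fold change was -0.034 ± 0.018, and it had the smallest exact permutation p of the 43 genes (p = 0.0183, not adjusted), while limma with Benjamini-Hochberg adjustment gave 0.863. Its paralog Rims2 was at -0.014 ± 0.022 and Unc13a, the priming factor Munc13-1, at -0.024 ± 0.020. Bsn, which encodes the giant scaffold bassoon, ran from 11035 to 11478 (median 11148.5) in ki/ki and from 10453 to 11756 (median 11165) in wt/wt mice. The ki/ki mice lay wholly inside the wt/wt range, and the fold changes of Bsn and of Pclo, which encodes piccolo, were 0.0057 ± 0.018 and 0.015 ± 0.015.

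Of the 12 ratios within families, only that of the complexin genes passed an adjusted p of 0.05. The 12 pairs were chosen with earlier results of these data known, so the p of this ratio is not an independent test. Cplx1 lay at 4873 to 5554 (median 5086) in ki/ki and 4995 to 5486 (median 5173.5) in wt/wt mice, and its own fold change of -0.034 ± 0.024 did not pass (limma, adjusted p = 0.902). Cplx2 lay at 11280 to 12764 (median 11903) and 11439 to 12355 (median 11636), with a fold change of 0.014 ± 0.023 (limma, adjusted p = 0.971). Because both genes varied together from mouse to mouse (r = 0.89 within genotypes, 16 mice, as a description), their ratio was much steadier than either level. Cplx1 per Cplx2 was 0.428 ± 0.00475 in ki/ki and 0.442 ± 0.0103 in wt/wt mice (SD, n = 8 each). It ranged from 0.422 to 0.435 and from 0.431 to 0.461, so that 6 of 8 ki/ki mice lay below every wt/wt mouse and 8 of 8 below the wt/wt median. The ratio fell by 3.24% (95% interval -5.10% to -1.34%, exact two-sided permutation p = 0.000932, adjusted p = 0.0112 by Benjamini-Hochberg over 12 ratios). Without any 1 mouse the log2 difference stayed between -0.053 and -0.039, and the adjusted p did not exceed 0.0392. The genes share almost no sequence, as 0.0914% of the 31-base words of Cplx1 occur in any other gene.

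Complexin I is the form of many inhibitory and hindbrain neurons and complexin II that of excitatory forebrain neurons, as general background. Both followed other quantities across mice. The correlation with the summed normalised values of a mouse, which do not carry the sequencing depth, was 0.84 for Cplx1 and 0.72 for Cplx2. With the astrocyte list it was 0.90 and 0.79, and with the oligodendrocyte list 0.81 and 0.82 (deviations from the genotype means, 16 mice, no test). The part of these in the ratio was not tested.

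**Figure D4:**
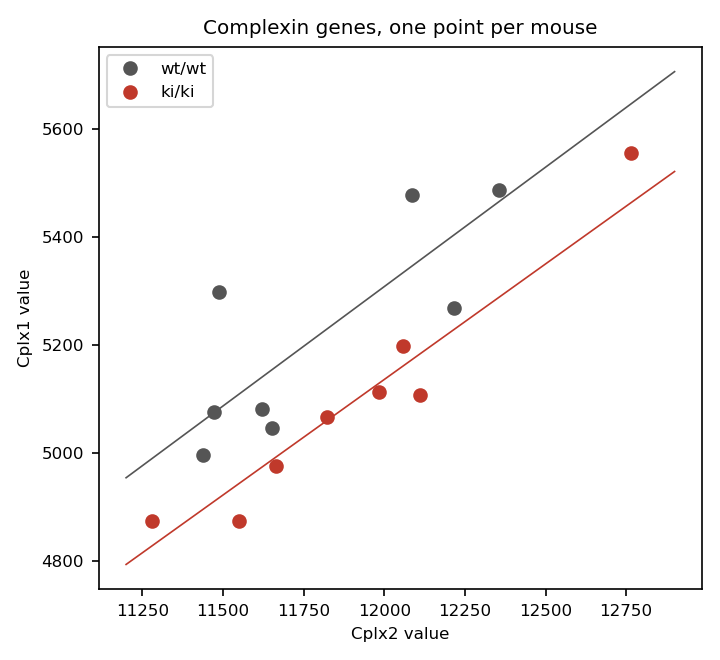
Cplx1 against Cplx2 values, 1 point per mouse (grey, wt/wt; red, ki/ki), with lines through 0 at the mean ratio of each genotype. The ki/ki line is the lower of both, at 0.428 against 0.442, and the axes do not start at 0.

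The starts of these genes were read from RefSeq (GRCm38.p6), which gave 53 promoters of 250 bases before and 50 after the start for 34 of the 43 genes. Shown are the complexin genes, whose ratio differed, Vamp1 and Syt2, which varied together across mice (r = 0.87 within genotypes), and Syn1 and Unc13a, which hold the left arm of RE1, the element bound by REST, a repressor of neuronal genes. All are written 5′ to 3′ on the strand of the gene, and capitals mark the motifs searched on both strands, TTCAGCACC (left arm of RE1), GGACAG (right arm of RE1), TGACGTCA and TGACG, which lies within it (whole and partial CRE), GGCGGG (GC box) and TATAAA.
Cplx1 (chr5:108549978-108550277, minus strand): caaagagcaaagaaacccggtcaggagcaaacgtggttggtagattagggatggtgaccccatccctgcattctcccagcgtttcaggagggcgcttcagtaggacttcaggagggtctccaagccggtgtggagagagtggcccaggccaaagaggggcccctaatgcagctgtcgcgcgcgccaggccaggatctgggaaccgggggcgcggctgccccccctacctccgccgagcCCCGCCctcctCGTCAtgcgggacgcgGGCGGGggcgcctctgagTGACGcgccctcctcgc
Cplx2 (chr13:54302306-54302605, plus strand): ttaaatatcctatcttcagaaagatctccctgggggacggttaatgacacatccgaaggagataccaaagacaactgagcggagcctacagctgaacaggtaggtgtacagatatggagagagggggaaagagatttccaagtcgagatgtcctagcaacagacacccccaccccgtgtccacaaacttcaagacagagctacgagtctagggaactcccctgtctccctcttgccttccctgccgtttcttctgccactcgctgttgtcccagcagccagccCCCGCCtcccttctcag
Vamp1 (chr6:125215331-125215630, plus strand): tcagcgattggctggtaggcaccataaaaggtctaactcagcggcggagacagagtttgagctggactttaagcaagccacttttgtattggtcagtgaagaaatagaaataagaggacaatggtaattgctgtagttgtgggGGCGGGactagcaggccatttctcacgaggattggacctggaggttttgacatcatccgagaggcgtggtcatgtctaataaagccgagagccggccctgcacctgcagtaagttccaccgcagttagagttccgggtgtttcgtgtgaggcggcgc
Syt2 (chr1:134646362-134646661, plus strand): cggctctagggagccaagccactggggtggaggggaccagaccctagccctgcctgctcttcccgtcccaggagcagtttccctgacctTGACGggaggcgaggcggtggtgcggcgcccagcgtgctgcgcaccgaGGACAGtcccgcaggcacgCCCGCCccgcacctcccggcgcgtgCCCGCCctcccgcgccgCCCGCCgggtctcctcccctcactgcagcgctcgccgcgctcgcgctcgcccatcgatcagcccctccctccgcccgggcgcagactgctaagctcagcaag
Syn1 (chrX:20920869-20921168, minus strand): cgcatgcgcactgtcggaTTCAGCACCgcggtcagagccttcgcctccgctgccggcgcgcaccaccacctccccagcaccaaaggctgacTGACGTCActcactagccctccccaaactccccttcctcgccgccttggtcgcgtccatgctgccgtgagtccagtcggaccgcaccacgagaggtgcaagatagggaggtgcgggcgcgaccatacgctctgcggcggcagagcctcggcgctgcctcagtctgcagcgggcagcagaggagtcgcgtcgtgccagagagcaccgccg
Unc13a (chr8:71671708-71672007, minus strand): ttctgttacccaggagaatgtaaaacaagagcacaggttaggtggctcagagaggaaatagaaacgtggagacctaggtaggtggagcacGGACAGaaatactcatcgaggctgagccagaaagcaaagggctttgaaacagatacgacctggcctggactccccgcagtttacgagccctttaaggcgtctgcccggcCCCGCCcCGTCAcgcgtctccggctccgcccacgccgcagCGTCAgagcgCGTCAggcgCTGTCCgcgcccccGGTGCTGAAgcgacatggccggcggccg
The word TTCAGCACC occurred in 3 of the 53 promoters (5.66%), those of Syn1, Unc13a and Nlgn1, and in 0.371% of 32851 mouse promoters. GGCGGG occurred in 52.8% of the promoters of the synaptic genes and in 35.3% of all, and in each of the promoters shown except that of Syn1. TGACGTCA occurred in 1 of the 53 promoters, that of Syn1 (1.89% against 1.79% of all), and TGACG in 18.9% against 20.8% of all. GGACAG was as frequent here as elsewhere (22.6% against 22.2%), and TATAAA was found in 7.55% against 13.6%. Cplx1 and Cplx2 both hold GGCGGG, and Cplx1 also holds TGACG, which Cplx2 lacks in this window. The Cplx2 window, from its RefSeq start, lies upstream of the annotated gene whose exons gave its length (chr13:54371349-54383917). Vamp1 holds 1 and Syt2 3 of these words. A match is a description of letters and says nothing about binding in these mice.

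None of the other 11 ratios within families passed. The next was Shank3 to Shank1, with a log2 difference of -0.040 (95% interval -0.085 to 0.0044, exact two-sided permutation p = 0.0791, adjusted p = 0.475). The ratios that set caudal against rostral paralogs were also close to 0. They were -0.029 (95% interval -0.099 to 0.042) for Vamp1 to Vamp2, 0.013 (-0.068 to 0.093) for Syt2 to Syt1, -0.013 (-0.094 to 0.067) for Slc17a6 to Slc17a7 and -0.040 (-0.14 to 0.063) for Sv2c to Sv2a. These intervals leave room for shifts of several percent. The remaining log2 differences were -0.00037 for Sv2b to Sv2a, 0.010 for Syn2 to Syn1, 0.020 for Rims2 to Rims1, 0.0094 for Pclo to Bsn, 0.082 for Homer2 to Homer1 and -0.041 for Nlgn3 to Nlgn2.

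Of the vesicular glutamate transporter genes, Slc17a7 ran from 5809 to 6068 (median 5878.5) in ki/ki and from 5485 to 6355 (median 6046) in wt/wt mice. Slc17a6 ran from 977 to 1117 (median 1037) and from 1038 to 1115 (median 1070). The wt/wt range contained all ki/ki mice for Slc17a7, and the fold changes were -0.024 ± 0.020 for Slc17a7 and -0.038 ± 0.029 for Slc17a6. The endocytosis genes Dnm1, Amph and Synj1, which cut, bend and uncoat retrieved vesicles, were at -0.0014 ± 0.014, -0.029 ± 0.023 and -0.014 ± 0.018. For Dnm1, the gene with the smallest difference, the 95% interval ran from -0.029 to 0.027.

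On the postsynaptic side, 6 of 8 scaffold genes were below 0. Homer1, which links metabotropic glutamate receptors to Shank proteins and has a short form induced by activity, had the lowest fold change of the 43 genes, -0.10 ± 0.062 (limma, adjusted p = 0.890, exact permutation p = 0.133). Its values were 2166 to 2890 (median 2757) in ki/ki and 2660 to 3093 (median 2802.5) in wt/wt mice. The medians were close, and ki/ki mice 6 and 3, at 2166 and 2300, lay below all others. Without ki/ki mouse 6 the fold change was -0.062. Across mice, Homer1 followed the immediate early gene Egr3 (r = 0.90 in ki/ki and 0.58 in wt/wt mice, 8 each, as a description) and, less closely, the mean of 12 activity-regulated genes (r = 0.51 over 16 mice). Gene-level values do not separate the long and the short form.

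Shank2 lay at 2739 to 2986 (median 2826.5) in ki/ki and 2688 to 3126 (median 2922.5) in wt/wt mice, a fold change of -0.044 ± 0.023 (limma, adjusted p = 0.856). Shank3 lay at 2946 to 3323 (median 3095.5) and 3078 to 3410 (median 3174), with a fold change of -0.033 ± 0.022 (limma, adjusted p = 0.897). Shank1, the most abundant member of this family, was at 0.0074 ± 0.017, so the signs within the family were mixed and no member passed. Dlg4, which encodes PSD-95, the core scaffold of excitatory synapses, ran from 6163 to 6672 (median 6258.5) in ki/ki and from 6228 to 6415 (median 6318.5) in wt/wt mice, and its fold change was 0.0021 ± 0.016 with a 95% interval of -0.030 to 0.034. Its relative Dlg2 was at -0.0078 ± 0.016, Dlgap1 at -0.014 ± 0.017 and Homer2 at -0.020 ± 0.030.

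Of the adhesion genes, 4 of 5 were below 0. Nrxn3, a presynaptic neurexin counted here with its adhesion partners, lay at 4707 to 5055 (median 4804) in ki/ki and 4834 to 5107 (median 4890.5) in wt/wt mice. Of the ki/ki mice, 5 of 8 lay below every wt/wt mouse (-0.031 ± 0.017, limma, adjusted p = 0.875, exact permutation p = 0.0563). Nrxn2 was at -0.0080 ± 0.019. The neuroligin genes Nlgn1 and Nlgn2, of mainly excitatory and inhibitory synapses respectively, were at -0.011 ± 0.025 and 0.0036 ± 0.021, and Nlgn3 at -0.037 ± 0.028. Of the exon bases of Nlgn3, 41.2% are shared on the same strand with Gm21986, which had values of 2 to 12. How reads in the shared bases were assigned is not known here, so the level of Nlgn3 may be incomplete. Other transcripts on the opposite strand cover 16.8% of the exon bases of Syp and 9.16% of those of Nlgn1.

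Of 44 further presynaptic genes 31 were below 0 and 0 passed, with 2 higher and 4 lower at an unadjusted p under 0.05. Among all genes 50.5% were below 0 and 6.08% had such a p. Among genes with a mean value of at least 300, where most of the further genes lie, 58.2% and 7.58% did. The smallest p belonged to Rab3c, a vesicle GTPase (-0.044 ± 0.017), Syt6 (-0.11 ± 0.049) and Rab3d (0.17 ± 0.080), with limma adjusted p of 0.641, 0.762 and 0.795 after Benjamini-Hochberg. Of 43 further postsynaptic and adhesion genes 32 were below 0 and 0 passed, with 4 lower and 0 higher at an unadjusted p under 0.05. Lower at this p were 3.01% of all genes and 5.02% of those with a mean value of at least 300. Here Clstn2, a calsyntenin, was at -0.077 ± 0.029, the scaffold gene Baiap2 at -0.057 ± 0.024 and the adhesion gene Lrrtm4 at -0.090 ± 0.043 (limma, adjusted p = 0.641, 0.757 and 0.820).

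Where the 43 genes did vary was between mice of the same genotype. The SD within genotypes on the log2 scale had a median of 0.048, against 0.065 for genes with a mean value of at least 300. Napb (0.15), Homer1 (0.13), Sv2c (0.11) and Snap25 (0.099) stood above the others. Napb, Sv2c and Snap25 moved together, with r = 0.90 for Snap25 and Napb, 0.83 for Snap25 and Sv2c and 0.81 for Napb and Sv2c. They were not a separate set, as the postsynaptic gene Shank2 had r = 0.72 with Snap25, 0.76 with Napb and 0.61 with Sv2c. The oligodendrocyte markers had r = 0.64, 0.73 and 0.62 with Snap25, Napb and Sv2c. All correlations are across the deviations of the same 16 libraries from their genotype means and are descriptions. The mice at the low end of Snap25 were of both genotypes, with ki/ki mouse 5 at 13868, ki/ki mouse 6 at 14062 and wt/wt mouse 2 at 14095. The same 3 mice had Sv2c values of 1087, 1126 and 1094, the lowest of all mice. Kif1a, an axonal motor gene outside the synaptic set, moved with them (r = 0.94 with Snap25).

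**Figure D5:**
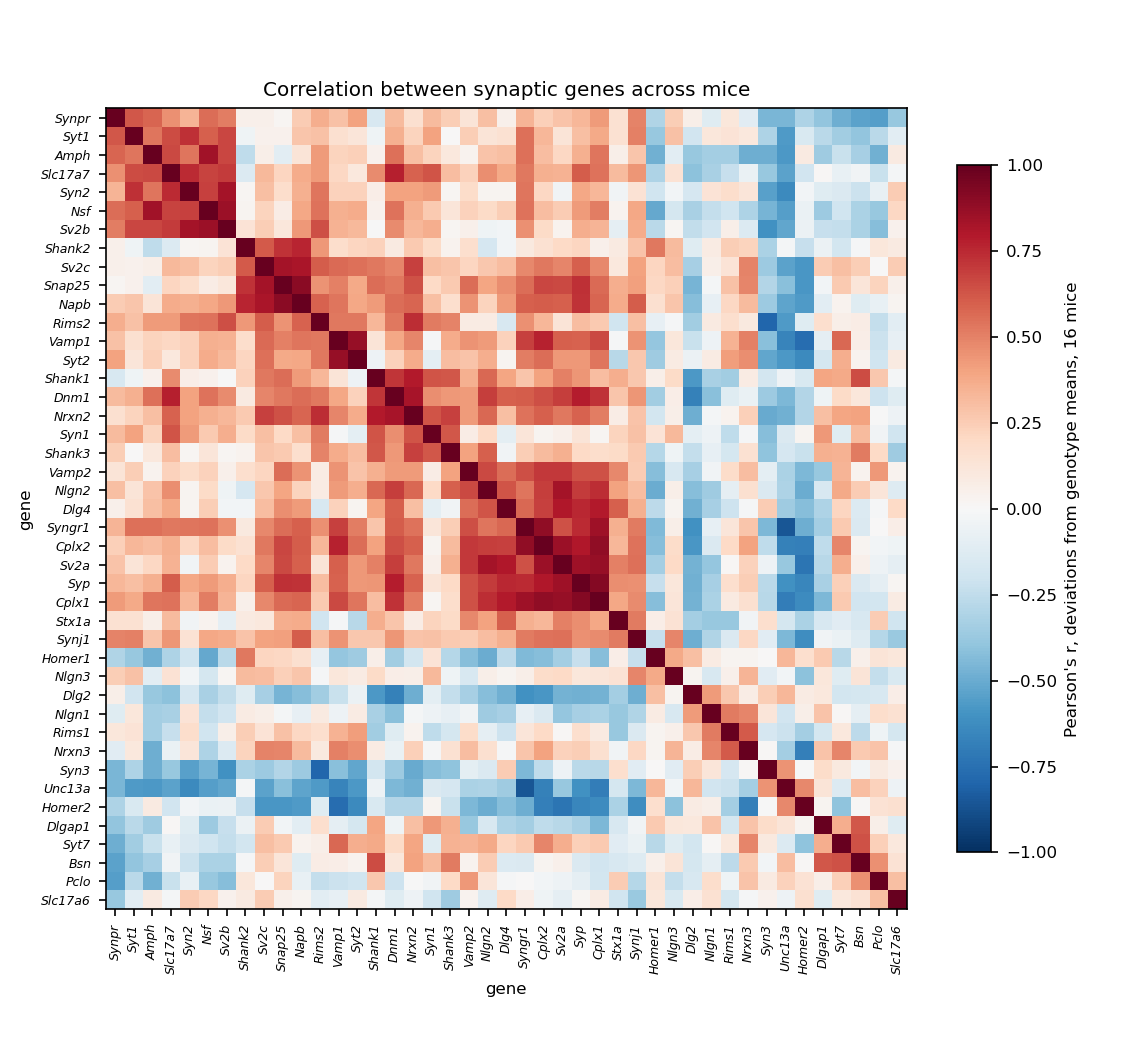
Pearson's r between the 43 genes across 16 mice, computed on deviations from the genotype means and ordered by average-linkage clustering (red, positive; blue, negative). The values run from -0.86 to 0.92 with a median of 0.14 over 903 pairs, and blocks of presynaptic genes appear along the diagonal.

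Another set joined Cplx1 to Syp (r = 0.92), Cplx2 (0.89) and Sv2a (0.87). One more was made of Vamp1 and Syt2 (r = 0.87), the paralogs of hindbrain synapses. Vamp1 followed the cerebellar markers (r = 0.78) and the caudal brainstem markers (r = 0.65), and so did Syt2 (0.71 and 0.59). Correlations with the oligodendrocyte markers (0.73 for Vamp1 and 0.61 for Syt2) and the astrocyte markers (0.69 and 0.58) were of like size. Syt1, in comparison, had r = -0.071 with the cerebellar and 0.11 with the caudal markers. Other genes followed the caudal markers about as closely as Vamp1 and Syt2, among them Rims2 (r = 0.73), Nrxn2 (0.69) and Dnm1 (0.63). The subcortical transporter gene Slc17a6 had r = -0.17 with the caudal markers. The lowest correlations were between Syngr1 and Unc13a (r = -0.86) and between Syn3 and Rims2 (r = -0.79). Over all 903 pairs 586 were positive, and the median was 0.24 among presynaptic pairs and 0.056 among postsynaptic pairs.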

How the data were processed

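Total RNA of whole brain was isolated with the RNeasy Mini kit and Trizol, and stranded libraries were prepared after depletion of ribosomal RNA. Per the labels and methods, reads were trimmed (Trim Galore 0.6.10, cutadapt 3.4), aligned to GRCm39 with STAR 2.7.10b and counted per gene with summarizeOverlaps, and the authors tested genes with DESeq2 1.40.2. The authors deposited a score per gene and mouse, namely linear normalised values rounded to whole numbers, whose normalization is not given in the sources used here. The 16 tables of single mice held the same values as the joint table. Raw counts were not restored, and depth and counting error are therefore unknown here. The replicates are separate mice.

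Genotypes were taken from the sample labels. Of 55404 genes, 52017 had a symbol in the GENCODE annotation of GRCm38, which also served for exon lengths and overlaps and is an earlier build than that of the alignment. The correlation of 1 further gene with the synaptic genes is not reported here. The 23244 genes whose values summed to more than 16, with 4 or more mice of either genotype above 5, were fitted on log2(value + 1) with limma 3.58.1 (R 4.3.3, moderated variances with a trend and robust estimation) and Benjamini-Hochberg adjustment at a threshold of 0.1. The pseudocount understates changes of low genes. Single genes and ratios were compared by exact two-sided permutation tests over 12870 splits of the mice (smallest p 0.000155), with Python 3.11.15, numpy 2.4.6, pandas 2.3.3, scipy 1.17.1 and matplotlib 3.10.9. The limma steps were tested on simulated data. Full statistics were given for the 12 genes with the smallest p, the 6 most variable and the members of a ratio with an exact p under 0.05, and from the wider lists for the 3 smallest p on each side. The genes, lists and ratios were chosen with earlier results of these data known. Egr3 and Kif1a, the activity list and the background of genes with a mean value of at least 300 were chosen after their values had been seen. Alternatives covered the pseudocount, the filter, the scaling, the variance estimate, a covariate, the replicate number as a block, the side of the neurexins and each mouse left out.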

Additional observations from a re-analysis of the deposited data

Results flagged for a closer look

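Of 86 groups of 8 mice, 1 for each gene and genotype, 5 held a mouse whose distance to its neighbour, relative to the range of the group, exceeded Dixon's 95% critical value. By chance about 1 in 20 groups would be expected to do so. Syt2 was lowest in wt/wt mouse 5, at 2519 against 2745 in the next mouse. Rims2 was lowest in ki/ki mouse 2, at 2605 against 2741. Dnm1 was highest in ki/ki mouse 3, at 9800 against 9494. Dlgap1 was lowest in wt/wt mouse 3, at 4902 against 5145. Nlgn2 was highest in wt/wt mouse 4, at 3162 against 2956. The 5 values belong to 5 different mice.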

How the results depend on the processing

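No synaptic gene passed an adjusted p of 0.1 in limma with Benjamini-Hochberg adjustment under any alternative run. At an unadjusted p under 0.05 the count of 1 became 3 without a filter on low values, 0 after rescaling to equal totals, 0 without trend and robust, 17 with the caudal brainstem score as covariate and 0 to 4 with 1 mouse left out (0 without ki/ki mouse 8, wt/wt mouse 4 or wt/wt mouse 8, and 4 without wt/wt mouse 7). Genes called among all tested, 31, became 20 without the filter, 16 without trend and robust, 44 with the covariate and 25 to 40 with 1 mouse left out. In the wider lists, 10 genes at an unadjusted p under 0.05 became 4 without trend and robust and 5 to 12 with 1 mouse left out, and 1 gene, Snap47 (-0.10, limma adjusted p = 0.0918), passed with the covariate. The presynaptic median of -0.024 became -0.041 with the covariate, and it stayed between -0.030 and -0.018 and the postsynaptic between -0.021 and -0.0063 with 1 mouse left out, and the presynaptic minus postsynaptic difference between -0.0032 and 0.010. The sign of the log2 fold change turned for Dnm1 (0.0025) after rescaling to equal totals and, with the covariate, for Cplx2 (-0.0094), Unc13a (0.0023), Dlg4 (-0.0021), Shank1 (-0.0057), Homer2 (0.0081) and Nlgn2 (-0.012). With 1 mouse left out it turned for 11 of the 43 genes, Vamp2, Sv2a, Sv2b, Cplx2, Bsn, Dnm1, Dlg4, Shank1, Nrxn2, Nlgn1 and Nlgn2. The turned values lay between -0.0086 (Dlg4) and 0.0050 (Dnm1). Turned or not, the values of these genes with 1 mouse left out lay between -0.029 and 0.024. The causes were not tested. With 1 mouse left out, 1 to 2 ratios passed, the other being Shank3 to Shank1 without ki/ki mouse 6 (-0.055), and the sign turned for Syt2 to Syt1 (-0.012 to 0.029), Sv2b to Sv2a (-0.018 to 0.015) and Slc17a6 to Slc17a7 (-0.030 to 0.0015).

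Deviations of mice with the same replicate number had correlations of -0.039 to 0.15 over 8 pairs (median 0.017). Those of mice with different numbers had -0.12 to 0.091 (median -0.0047), and 3 of 8 ki/ki mice were closest to their own number. These correlations were weak, and the number was not taken as a pairing. With it as a replicate block, 3 synaptic genes had an unadjusted p under 0.05 and 46 genes were called among all tested. The exact test within pairs gave p = 0.0156 for Cplx1 to Cplx2, and 0 ratios passed, but its smallest possible p of 0.00781 cannot reach 0.05 after adjustment over 12 ratios if only 1 ratio reaches it.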
